A study of Mus musculus with 32 samples.

Results

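The 7 genes described here encode proteins that fat tissue secretes into its extracellular matrix: Spon1, Svep1, Thbs2, Tnc, Smoc1, Ogn and Sulf1. They were picked by name from genes that stood strongly higher in fat of mice with an adipocyte-targeted deletion of Bcl6, so their difference between genotypes chose them and is given as a description, with no test. They are 7 of 2480 genes that the authors listed for at least 1 of 3 adipose comparisons. All mice were C57BL/6 and carried loxP-flanked Bcl6 alleles. Wild type (WT) mice had the genotype Bcl6 fl/fl, and adipocyte knockout (AKO) mice had Bcl6 fl/fl with Adipoq-Cre, in which the adiponectin promoter drives Cre in adipocytes and leaves Bcl6 in other cells. No group had Cre without the loxP-flanked alleles, so an effect of Cre or its transgene cannot be told apart from that of the deletion. Poly(A) RNA was sequenced from the inguinal fat pad of either sex and from the male perigonadal pad, with 4 WT and 4 AKO mice in each set and 1 mouse per library. The labels give no age. By animal number, 1 set of males gave both pads.

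Matricellular proteins sit in the extracellular matrix without being its main scaffold, and act there by binding cell receptors, growth factors and fibrils. Fat tissue holds such proteins around adipocytes, vessels and stromal cells, and remodels them as the depot grows. BCL6, the protein of the targeted gene, is a zinc-finger repressor of transcription. In RNA of whole tissue, a change in the number of cells of a type and a change in RNA per cell cannot be told apart.

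Read counts were held for 8 libraries each of male and female inguinal fat, and only for genes the authors had listed. Over these genes a male library summed to between 592820 and 2603509 counts and a female library to between 864592 and 4072659, and the full depth of the libraries is unknown. Values below are normalized read counts, that is counts divided by the authors' size factor of each library. The size factors were 0.838 ± 0.332 in WT and 1.36 ± 0.423 in AKO males (SD, n = 4, exact permutation test, two-sided, p = 0.114) and 0.786 ± 0.285 and 1.37 ± 0.233 in females (exact permutation p = 0.0286). AKO libraries were thus the deeper ones in females. Some adipocyte genes were abundant. Mean normalized counts in the authors' deposited tables were 15191 for Plin1 in male inguinal fat and 57230 for Adipoq in female inguinal fat. In perigonadal fat the authors' deposited table gives 90492 for Cidec, but only 38.3 for Cidea, which is also among the adipocyte markers used here. Bcl6 itself was listed for female inguinal fat only, at 989 to 1442 normalized counts in WT and 2295 to 2800 in AKO. These counts cover the whole gene, so they do not check the genotype, and AKO here means the libraries labelled so.

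In male inguinal fat all 7 genes were listed as higher in AKO. The authors' list holds 8.56% of the 12554 genes tested, 4.54% as higher, and since the genes were picked for this contrast nothing is read from the count. The difference between genotypes ran from 5.53-fold for Spon1 to 1.48-fold for Tnc, with a median of 2.35-fold.

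Spon1 (F-spondin) is a secreted glycoprotein with thrombospondin repeats that was first described in the floor plate of the neural tube. The gene lies on chromosome 7 from 113765998 to 114043370, plus strand (mm10, as for every position here). Its normalized counts were 483, 388, 560 and 488 in the WT males and 2557, 2715, 2656 and 2701 in the AKO males. The lowest AKO library stood 4.56 times above the highest WT library, and the AKO libraries lay close together, with a coefficient of variation of 2.69% against 14.7% in WT. The fit gave a log2 fold of 2.47 ± 0.10 (SE), which ranked 22nd of 570 rises in that table.

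Svep1 is a very large secreted protein with sushi, EGF and pentraxin domains that serves as an integrin ligand and is needed for lymphatic vessels in mouse and zebrafish. It lies on chromosome 4 from 58042442 to 58206859, minus strand. WT males had 2067, 1884, 1769 and 1697 normalized counts and AKO males 5061, 5076, 4680 and 4554. Every AKO library was at least 2.20 times the highest WT library. The log2 fold was 1.39 ± 0.08 (SE), or 2.62-fold.

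Of the 7 genes, 4 (Svep1, Tnc, Ogn and Thbs2) matched RefSeq's promoter table (GRCm38.p6, the assembly of mm10). The 250 bases before RefSeq's annotated start are shown for Svep1 and Ogn, the pair among these that was listed in all 3 adipose comparisons, from 5′ to 3′ on the strand of the gene. RefSeq's starts can differ from the gene ends given here, which are from GENCODE. The whole Svep1 window lies inside the GENCODE span of the gene, which reaches to 58206859. Capitals mark the letters TATAAA on either strand.
Svep1 promoter, chr4:58206597-58206846, minus strand: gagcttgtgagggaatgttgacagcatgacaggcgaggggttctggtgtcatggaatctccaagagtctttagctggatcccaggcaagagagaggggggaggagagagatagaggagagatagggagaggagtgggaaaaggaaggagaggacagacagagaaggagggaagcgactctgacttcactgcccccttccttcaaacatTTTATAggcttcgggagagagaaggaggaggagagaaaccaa
Ogn promoter, chr13:49607765-49608014, plus strand: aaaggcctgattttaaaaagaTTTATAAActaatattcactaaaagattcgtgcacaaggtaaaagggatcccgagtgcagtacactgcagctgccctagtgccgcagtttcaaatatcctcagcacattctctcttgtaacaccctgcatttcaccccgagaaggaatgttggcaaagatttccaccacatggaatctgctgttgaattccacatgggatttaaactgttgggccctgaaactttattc
The Svep1 window holds 1 such match, whose first base lies 42 bases before the start, and the Ogn window 2 overlapping matches at 229 and 227 bases before it. The windows of the other two genes hold it as well, Thbs2 at 126 bases and Tnc at 126 and 205 bases before its 2 annotated starts. TATAAA on either strand is found in 12.4% of the 32851 promoter windows of this length. The letters TTCNNNGAA, the spacing that STAT5 binds and that the BCL6 motif shares, are found in 7.02% of windows and in none of those of the 4 genes. The AP-1 letters TGANTCA, also searched on both strands, are found in 6.75% of windows and in none of those of the 4 genes. No match says only that these letters are not in this window.

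Thbs2 (thrombospondin-2) is a matricellular glycoprotein that restrains angiogenesis in mouse and shapes collagen fibrils. It lies on chromosome 17 from 14665500 to 14694235, minus strand. Its counts were 765, 1275, 1027 and 727 in WT males and 1678, 2149, 1554 and 1907 in AKO males. WT libraries were the most scattered of any of the 7 genes, with a coefficient of variation of 26.9%, yet the groups did not overlap. The fold was 1.91 (log2 fold 0.93 ± 0.17 SE).

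Tnc (tenascin-C) is a matricellular glycoprotein that appears in matrix under repair and signals through integrins and Toll-like receptors. It lies on chromosome 4 from 63959785 to 64047015, minus strand. Its counts were 408, 506, 478 and 359 in WT males and 781.2, 608, 778 and 458 in AKO males. Here the groups overlapped, since AKO replicate 4 lay below WT replicates 2 and 3. The log2 fold was 0.57 ± 0.17 (SE), the smallest of the 7, and went from 0.47 without AKO replicate 1 up to 0.71 without AKO replicate 4.

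Smoc1 belongs to the SPARC family of calcium-binding matrix proteins and restrains BMP signalling in frog embryos. It lies on chromosome 12 from 81026808 to 81186414, plus strand. Its counts were 4156, 2827, 4387 and 3761 in WT males and 8914, 8551, 9320 and 8813 in AKO males. The AKO libraries lay close together, with a coefficient of variation of 3.59%, and all above the WT libraries. The fold was 2.35 (log2 fold 1.24 ± 0.12 SE).

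Ogn (osteoglycin, or mimecan) is a small leucine-rich proteoglycan that takes part in collagen fibril assembly. Its promoter is shown above beside that of Svep1, and the gene lies on chromosome 13 from 49608046 to 49624501, plus strand, wholly inside Cenpp, a gene of the opposite strand that no adipose table lists. Its counts were 2797, 2925, 3355 and 2170 in WT males and 5338, 5215, 4476 and 3785 in AKO males. The groups did not overlap, but the gap was narrow, since the lowest AKO library was 1.13 times the highest WT library. The fold was 1.67 (log2 fold 0.74 ± 0.14 SE).

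Sulf1 is a secreted sulfatase that removes sulfate groups from heparan sulfate chains outside the cell and so changes which growth factors they hold. It lies on chromosome 1 from 12692277 to 12861192, plus strand. Its counts were 400, 315, 316 and 344 in WT males and 929, 1137, 978 and 951 in AKO males. All 4 AKO libraries were at least 2.32 times the highest WT library. The fold was 2.95 (log2 fold 1.56 ± 0.09 SE), second to Spon1 among the 7.

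For 6 of the 7 genes the male groups did not overlap, and Tnc was the exception. Of the 1074 genes with male counts, 48.0% were higher in AKO with no overlap. These were 516 genes, beside 570 that the authors listed as higher in males. No overlap was thus common among rises, and nothing is read from it for the 7 genes. AKO replicate 3 had a size factor of 0.760, below those of WT replicates 2 to 4 at 0.917, 1.16 and 0.904, and its normalized counts for Spon1, Svep1, Sulf1, Ogn and Tnc lay within the range of the other AKO libraries. For Smoc1 it was the highest AKO library, and for Thbs2, at 1554, the lowest. Summed over the 7 genes, WT males had 11076, 10121, 11891 and 9546 normalized counts and AKO males 25258, 25450, 24442 and 23168. Smoc1 and Ogn made up 61.9% of the sum in WT and 55.3% in AKO.

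**Figure D1:**
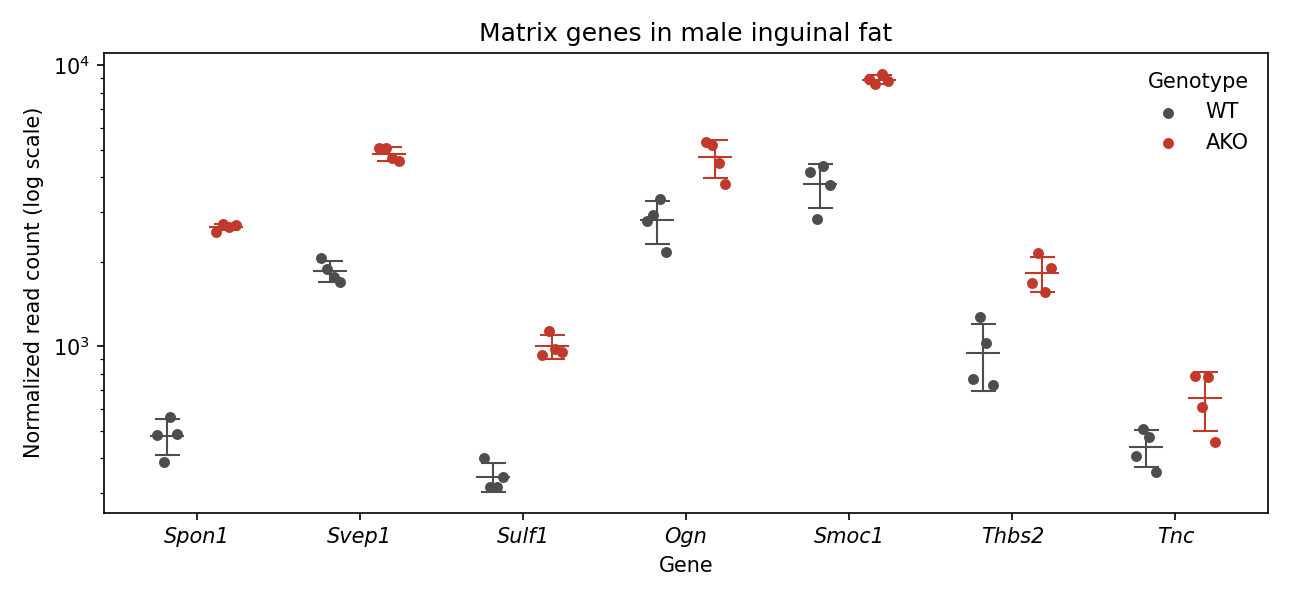
Normalized read counts (log scale) of the 7 matrix genes in male inguinal fat, with 1 point per library, the group mean as a horizontal line and the SD as a bar, n = 4 WT (grey) and n = 4 AKO (red). Spon1 shows the widest gap, from 388 to 560 in WT and from 2557 to 2715 in AKO, and Tnc is the gene whose groups overlap.

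In female inguinal fat 4 of the 7 genes were listed, all higher in AKO: Svep1, Smoc1, Ogn and Sulf1. The authors listed 5.83% of the 13546 genes tested, 3.20% as higher. Spon1, Thbs2 and Tnc were not listed for females, so no value of theirs is given for that sex and nothing is known here of their direction.

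Svep1 had 1965, 2492, 1609 and 2396 normalized counts in WT females and 7172, 7631, 5242 and 6151 in AKO females. The lowest AKO library was 2.10 times the highest WT library. Its log2 fold of 1.63 ± 0.16 (SE), or 3.09-fold, was the largest of the 4. Smoc1 had 5859, 5179, 5359 and 5754 counts in WT females and 10443, 11816, 11750 and 11092 in AKO females. It was the steadiest gene of the set, with coefficients of variation of 5.81% in WT and 5.71% in AKO, and a log2 fold of 1.03 ± 0.08 (SE).

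Ogn had 3777, 4159, 3302 and 5368 counts in WT females and 11682, 9549, 6829 and 8030 in AKO females. Its AKO libraries spread over a wide range, from 6829 in replicate 3 to 11682 in replicate 1, with a coefficient of variation of 23.2%, and none fell to the WT range. The log2 fold was 1.12 ± 0.18 (SE). Sulf1 had 553, 540, 626 and 651 counts in WT females and 1495, 1307, 991 and 1693 in AKO females. AKO replicate 3 was again the lowest AKO library, as it was for Svep1 and Ogn, and still stood 1.52 times above the highest WT library. The log2 fold was 1.21 ± 0.15 (SE). For all 4 genes the groups did not overlap, and of the 790 genes with female counts 49.5% were higher with no overlap. That is 391 genes, beside 434 that the authors listed as higher in females, so no overlap was common among rises here too.

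**Figure D2:**
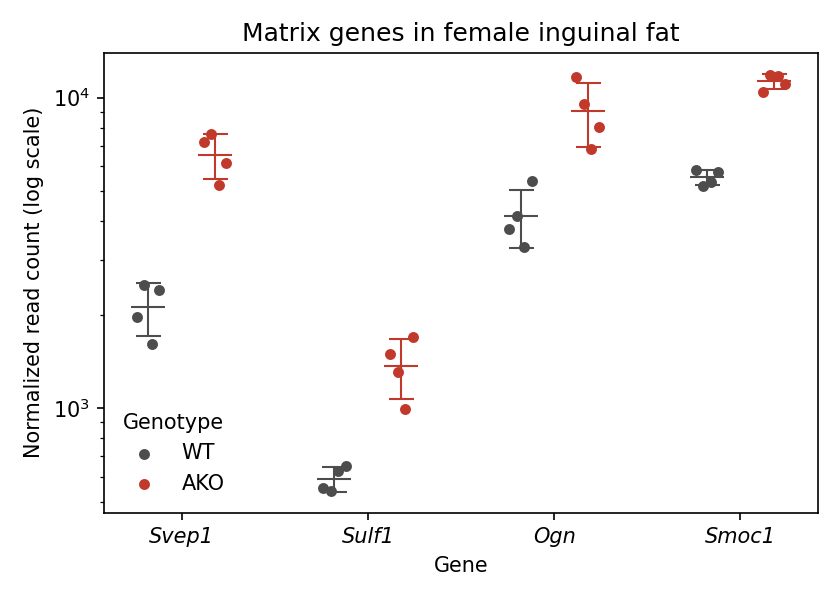
Normalized read counts (log scale) of the 4 listed matrix genes in female inguinal fat, with 1 point per library, the group mean as a horizontal line and the SD as a bar, n = 4 WT (grey) and n = 4 AKO (red). The groups do not overlap for any of the 4 genes, and Smoc1 is the tightest, from 5179 to 5859 in WT and from 10443 to 11816 in AKO.

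Whether the genotype difference itself differed between the sexes was tested as the sex by genotype term of an edgeR quasi-likelihood fit over 16 libraries and the 290 genes listed in both sexes. That term passed an adjusted p of 0.05 for 1.72% of these genes and for none of the 4 matrix genes. As female minus male log2 fold, Svep1 differed by 0.24 (95% interval -0.14 to 0.62, adjusted p = 0.622) and Ogn by 0.38 (-0.13 to 0.88, adjusted p = 0.578). Smoc1 differed by -0.21 (95% interval -0.53 to 0.11, adjusted p = 0.603). For Sulf1 the difference was -0.35 (95% interval -0.74 to 0.05, adjusted p = 0.486). The intervals of Ogn and Sulf1 reach past 0.7 in size, so the 2 sexes are not shown to respond alike. Every gene in this fit had been listed for both males and females, which selects against a difference between them. Genes listed for males alone, such as Spon1, Thbs2 and Tnc, or for females alone could not enter. The share of 1.72% thus cannot tell how often the sexes differed among all genes. The sexes were sequenced from separate sets of mice by their animal numbers, so sex cannot be told apart from the set.

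In perigonadal fat of males 6 of the 7 genes were listed, all higher in AKO, and Thbs2 was not. The authors listed 11.1% of the 13361 genes tested, 5.68% as higher. Counts per library were not analysed for this depot, so the authors' means over all 8 libraries and their log2 folds are given. Spon1 had a log2 fold of 2.45 ± 0.14 (SE) in the authors' deposited table, at a mean of 4054 normalized counts. Svep1 followed there with 1.92 ± 0.10 at a mean of 7133, in the authors' deposited table. For Ogn the authors' deposited table gives 1.65 ± 0.10 at a mean of 13171, and for Tnc 1.40 ± 0.14 at a mean of 1176. Smoc1 and Sulf1 were lowest in that depot, with 1.06 ± 0.13 and 0.99 ± 0.10 in the authors' deposited table, at means of 15714 and 2014.

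Set side by side from the authors' deposited tables, the genes did not keep one order across the depots. Spon1 had log2 folds of 2.40 ± 0.11 in male inguinal and 2.45 ± 0.14 in perigonadal fat in the authors' deposited tables. Ogn had 0.70 ± 0.15 and 1.65 ± 0.10, and Tnc 0.53 ± 0.18 and 1.40 ± 0.14, both larger in perigonadal fat in the authors' deposited tables. Svep1 was also larger there, with 1.37 ± 0.08 in male inguinal and 1.92 ± 0.10 in perigonadal fat in the authors' deposited tables. Sulf1 went the other way there, with 1.51 ± 0.11 in inguinal and 0.99 ± 0.10 in perigonadal fat. Smoc1, at 1.18 ± 0.13 and 1.06 ± 0.13, lay within 1 SE between the 2 depots in the authors' deposited tables. The difference between depots was not tested, since the depots share mice and the perigonadal libraries were not analysed one by one. Of the 7 genes, 4 (Svep1, Smoc1, Ogn and Sulf1) were listed by the authors as higher in all 3 comparisons. So were 121 of the 2480 genes listed in any of them. The 7 were picked among strong rises, so nothing is read from that count.

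**Figure D3:**
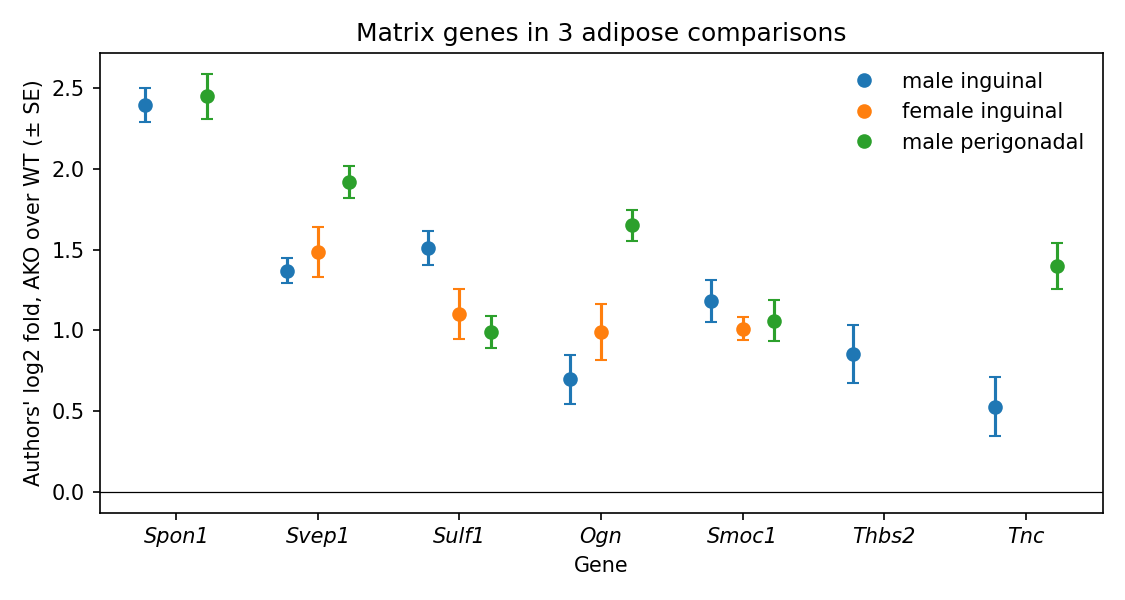
Log2 fold of AKO over WT (vertical axis) with its standard error, as in the authors' deposited tables, for each of the 7 matrix genes in male inguinal, female inguinal and male perigonadal fat; a gap means that the gene was not listed. Ogn, Tnc and Svep1 stand higher in perigonadal than in male inguinal fat, Sulf1 stands lower, and Spon1 and Smoc1 lie within 1 SE.

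Compared per kilobase of annotated exon, levels of the 7 genes differed widely within one library set. In WT males Ogn and Smoc1 were the most abundant, at 1096 ± 191 and 1082 ± 197 normalized counts per kilobase (SD, n = 4), and their ranges overlapped. Thbs2 (135 ± 36.5 per kilobase) and Svep1 (115 ± 10.01) came next and also overlapped. Tnc (56.3 ± 8.61 per kilobase) and Spon1 (46.2 ± 6.79) overlapped in turn, and Sulf1 was lowest at 30.4 ± 3.53 per kilobase. In AKO males the order of levels was Smoc1 (2546 ± 91.4 per kilobase), Ogn (1833 ± 281), Svep1 (300 ± 16.5), Thbs2 (260 ± 37.5), Spon1 (256 ± 6.87), Sulf1 (88.4 ± 8.35) and Tnc (84.4 ± 19.9). The Smoc1 and Ogn libraries no longer overlapped there, the Spon1 libraries all lay within the range of Thbs2, which overlapped with Svep1, and Sulf1 overlapped with Tnc. In WT females the levels per kilobase were 1618 ± 344 for Ogn, 1584 ± 92.0 for Smoc1, 131 ± 25.3 for Svep1 and 52.5 ± 4.81 for Sulf1, and the order was the same in AKO females; Ogn and Smoc1 overlapped in both groups. In perigonadal fat the authors' deposited means came to 5133 for Ogn, 4495 for Smoc1, 443 for Svep1, 390 for Spon1, 178 for Sulf1 and 151 for Tnc per kilobase.

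Within a group, the 7 genes did not move as one block from mouse to mouse. Deviations from the group mean, as log2 of the normalized count plus 1, were correlated over the 8 libraries of a table, which share depth and tissue composition, as a description. Over the 21 pairs of genes in males Pearson's r ran from -0.61 (Smoc1 with Thbs2) to 0.91 (Spon1 with Smoc1), with a median of 0.08, and 12 pairs were positive. Over the 6 pairs in females it ran from -0.36 (Sulf1 with Smoc1) to 0.83 (Svep1 with Ogn). The genes' r with the log2 size factor ran from -0.47 for Sulf1 to 0.58 for Thbs2 in males.

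The genes whose deviations were most like those of each member were sought among the listed genes of the same table, 961 in males and 724 in females. With so many genes and 8 libraries a high r is reached for each member: the 95th percentile of r lay between 0.60 and 0.84. In males Igf2 (r = 0.95) and Lyplal1 (0.94) were most like Spon1, where Spearman's coefficient for Igf2 was only 0.33. Idh2 and Ksr1 were most like Svep1 (r = 0.94 and 0.89) and Synpo2 and Fam184a most like Sulf1 (0.86 and 0.83). Kiss1r and Eif5a2 followed Ogn (r = 0.99 and 0.98), Slc35b4 and Lyplal1 followed Smoc1 (0.97 and 0.96), Rasgef1b and Akt1 followed Thbs2 (0.95 and 0.95), and Map1a and Pigs followed Tnc (0.95 and 0.93). In females Ipo9 and Ahcyl2 were most like Svep1 (r = 0.95 and 0.94), Tbc1d16 and Bahcc1 most like Sulf1 (0.99 and 0.98), Rgl1 and Vgll3 most like Ogn (0.95 and 0.94), and Sybu and Adora1 most like Smoc1 (0.93 and 0.87). No gene was named in both sexes for the same member. Each search covered only genes listed for its own sex, and only 290 genes were listed for both, so this says little about the sexes.

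The 7 genes were then set beside the rest of their families, taken from lists of matrix genes and leaving the 7 out. The lists can show only genes that the authors listed. Of all genes the authors listed, 53.1% were higher in male inguinal, 54.9% in female inguinal and 51.0% in perigonadal fat, with median log2 folds of 0.23, 0.30 and 0.21 in the authors' deposited tables. Below, a gene rose or fell where the edgeR quasi-likelihood test passed 0.05 after adjustment for the number of genes the authors tested. Only listed genes had counts to fit, 1074 in males and 790 in females, so genes outside the lists could not be called. The listed genes had already passed the authors' own test of the same libraries. The rule called 366 male and 211 female genes higher, which is 2.92% of the 12554 and 1.56% of the 13546 tested by the authors. In females 64.7% of the 326 calls were higher in AKO, a share that was 36.2% with TMM scaling and 21.99% with the table's total as library size. These 2 scalings were computed from the listed genes alone, all of which the authors found to differ. They thus do not show what the same scalings would give over all genes.

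Of 78 matricellular and secreted glycoprotein genes, 8 beside the 7 were listed in males, 6 higher and 2 lower in AKO, and by edgeR 5 rose and 2 fell. Crispld2, a secreted glycoprotein, rose 1.597-fold (504 ± 82.1 against 814 ± 88.3 normalized counts, SD, n = 4), and Fbln5, an elastic fibre protein, 1.38-fold (1363 ± 102 against 1881 ± 277). Ltbp2 and Ltbp3, latent TGF-beta binding proteins of the microfibrils, fell by 1.07 and 0.48 on the log2 scale, Ltbp2 from 308 ± 65.0 to 143 ± 19.7. In females 6 others were listed, 4 higher and 2 lower, and 3 rose and 1 fell. Fbln5 rose 1.54-fold, Tgfbi, a collagen-binding integrin ligand, 1.35-fold and the matrilin gene Matn2 1.32-fold, and Ltbp2 fell by 0.65 on the log2 scale. In perigonadal fat 6 others were listed, 2 higher and 4 lower. The authors' deposited table gives Emilin2, an elastic fibre glycoprotein, a log2 fold of 0.96, Abi3bp 0.75, Ltbp2 -0.86 and Ltbp3 -0.66.

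Of 28 genes for leucine-rich and large proteoglycans, 2 beside Ogn were listed in males and 1 in females, all lower in AKO. The rest of the list holds no value in inguinal fat. Podn (podocan), of the same leucine-rich family as Ogn, fell by 0.87 in males (2040 ± 311 against 1115 ± 102 normalized counts) and by 0.54 in females (1167 ± 93.9 against 804 ± 121) on the log2 scale. Ncan, a large chondroitin sulfate proteoglycan best known in brain, fell by 1.86 in males. In perigonadal fat the authors' deposited table gives Podn -0.75, Optc -0.92 and Omd, osteomodulin, 0.60.

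Of 37 genes for heparan sulfate chains and their editing, 3 beside Sulf1 were listed in each inguinal table. Hs3st3b1, which adds sulfate groups to heparan sulfate chains, rose 2.83-fold in males (83.4 ± 19.9 against 240 ± 40.6 normalized counts) and 2.14-fold in females (137 ± 35.3 against 296 ± 53.3). Its log2 fold was 2.20 in perigonadal fat in the authors' deposited table, beside 1.36 in male and 0.95 in female inguinal fat in the authors' deposited tables. Ndst1, an enzyme of the first sulfation step, rose 1.42-fold in males. Sulf2, the sister enzyme of Sulf1, fell by 0.40 on the log2 scale in males (3346 ± 213 against 2534 ± 272 normalized counts). In perigonadal fat Sulf2 had a log2 fold of -0.46 in the authors' deposited table, where Sulf1 had 0.99. Sulf1 and Sulf2 thus lay on opposite sides of no change in both male depots. In females Hs3st6 fell by 0.96, and Sdc4, the syndecan-4 gene, had a log2 fold of -0.42 (adjusted p = 0.119). Sdc3 (0.28) and Hs2st1 (-0.25) complete the list in perigonadal fat, in the authors' deposited table.

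Of 32 matrix receptor genes, among them integrins, none was listed in males, where the list holds no value for any of them. The collagen receptor gene Ddr1 was listed as lower in females (log2 fold -0.68 ± 0.18 SE, adjusted p = 0.0805), and in perigonadal fat the authors' deposited table lists Itgb5 (-0.44) and Egfr (0.50).

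Of 55 collagen and basement membrane genes, 8 were listed in males, 6 higher and 2 lower, and by edgeR 3 rose and 1 fell. Nid1, which links laminin to collagen in basement membranes, rose from 10649 ± 1471 to 16716 ± 1424 normalized counts, Col12a1 2.50-fold and Col6a1 1.58-fold, and the laminin chain gene Lamb3 fell by 0.99. In females 8 were listed, 4 in each direction, of which Col6a1 (1.58-fold) and Nid2 (1.76-fold) rose, while Col13a1 had a log2 fold of -0.74 (adjusted p = 0.0687). In perigonadal fat 7 of 8 were higher in the authors' deposited table, among them Col22a1 (log2 fold 1.96), Col6a1 (0.67) and Col1a1 (0.37), and Lamb3 (-1.23) was lower.

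Of 68 genes for matrix enzymes and inhibitors, 10 were listed in males (8 higher, 2 lower; by edgeR 5 rose and 1 fell) and 6 in females, all higher, of which 3 rose. The secreted protease gene Htra1 rose 1.71-fold in males, the collagen lysyl hydroxylase gene Plod2 1.76-fold and Adamts2, which trims procollagen, 1.39-fold, and the protease inhibitor gene Serpine2 fell by 0.62. In females the metalloproteinase genes Mmp12 and Mmp9 rose 5.59-fold and 1.78-fold and Adamtsl5 1.42-fold, and Adamts9 was 1.35-fold higher (adjusted p = 0.0618). In perigonadal fat 5 were higher and 5 lower in the authors' deposited table. The 4 with the lowest adjusted p there were Adamtsl2 (log2 fold -1.39), Plod2 (0.66), Htra3 (-0.58) and Tgm2 (0.32) in the authors' deposited table, and Adamts16 (-0.92), Mmp13 (0.83) and Timp4 (-0.67) had larger folds than the last 3 of these.

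Of 49 genes for TGF-beta and BMP signalling, 5 were listed in males, 4 higher and 1 lower, and by edgeR 3 rose and 1 fell. The BMP ligand gene Bmp2 rose 1.57-fold, Tgfb3 1.503-fold and Ski 1.17-fold, and Smad2 fell by 0.27 on the log2 scale. Of 6 listed in females Bmp3 (2.17-fold) and the activin antagonist gene Fstl3 (1.58-fold) rose, while Bmp2 had a log2 fold of 0.62 (adjusted p = 0.0836) and Acvr1b -0.48 (adjusted p = 0.0839). In perigonadal fat the authors' deposited table lists Nog (-0.79), Bmp2 (0.40) and Tgfb3 (0.38).

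Without the 7, which were picked for being higher, the median log2 folds in the authors' deposited tables are given in the order of male then female inguinal and last perigonadal fat. They were 0.39, 0.40 and -0.47 for the matricellular list, -1.03, -0.51 and -0.75 for the proteoglycans, and 0.51, -0.40 and 0.01 for heparan sulfate. They were 0.45, 0.11 and 0.39 for collagens, 0.40, 0.58 and -0.05 for matrix enzymes, and 0.54, 0.09 and 0.38 for TGF-beta and BMP signalling. These stand beside 0.23, 0.30 and 0.21 for all listed genes, and each median rests on at most 10 genes and was not tested. In the same order of tables, the proteoglycan values rest on only 2, 1 and 3 genes and the heparan sulfate values on 3, 3 and 4. Those for TGF-beta and BMP signalling rest on 5, 6 and 3 genes.

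Leaving out the 7, 3 genes of the matrix lists were listed as lower in all 3 adipose comparisons (Ltbp2, Ltbp3 and Podn) and 5 as higher (Hs3st3b1, Col6a1, Htra1, Bmp2 and Nid1).

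**Figure D4:**
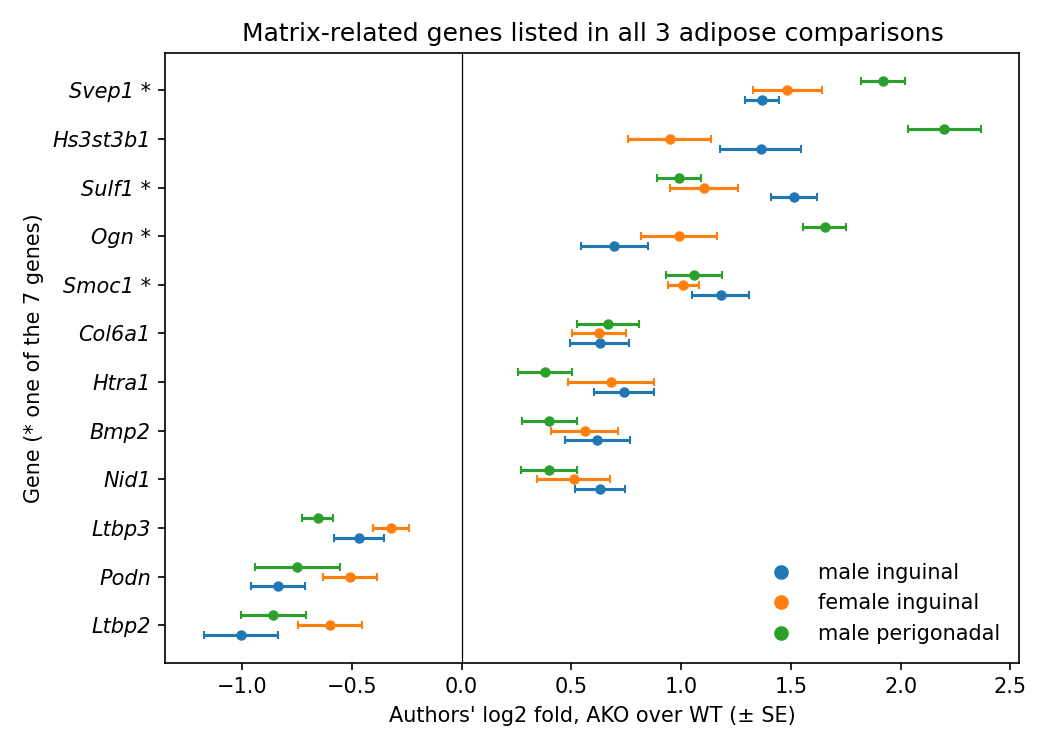
Log2 fold of AKO over WT (horizontal axis) with its standard error, as in the authors' deposited tables, for the 12 genes of the matrix lists that were listed in all 3 adipose comparisons; stars mark those of the 7 genes. Ltbp2, Ltbp3 and Podn lie below 0 and the other 9 above it in every comparison.

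Markers of the cell types that a fat pad holds were set beside these values. Of 21 markers of fibroblasts, adipose progenitors and mesothelium, only Lrrn4, a mesothelial marker, was listed in inguinal fat, at 24.2 to 40.5 normalized counts in WT and 100 to 139 in AKO males, and 59.7 to 94.2 in WT and 122 to 226 in AKO females. The fibroblast markers Pdgfra, Dcn and Col3a1 were not listed in any adipose table. In perigonadal fat 5 of the 21 were listed, and Lrrn4 (log2 fold -0.91), Krt19 (-1.05), Cd55 (-0.42) and Dpp4 (-0.46) were lower and Col1a1 (0.37) higher in the authors' deposited table, where 6 of the 7 matrix genes were higher.

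Of 17 macrophage markers, 5 were listed in females, all higher in AKO, with a summed level of 13900 to 17377 normalized counts in WT and 17450 to 24121 in AKO. Of these Mmp12 (5.59-fold) and Csf1r (1.44-fold) rose by edgeR, and Cd163 (1.67-fold, adjusted p = 0.0587), Lyz2 (1.32-fold, adjusted p = 0.0952) and Atp6v0d2 did not pass. In males the single listed marker, Cd14, went from 349 to 441 in WT and from 255 to 338 in AKO, and in perigonadal fat 5 were higher, such as Atp6v0d2 (log2 fold 1.32), Emr1 (0.55), Mrc1 (0.38) and Cd68 (0.58) in the authors' deposited table. Of 17 endothelial and mural markers, Pecam1, Cspg4 and Mcam were listed in males, with a summed level of 9265 to 11028 in WT and 10931 to 11580 in AKO, of which Mcam rose 1.29-fold and Cspg4 fell by 0.91. Cspg4 was the one listed in females and fell by 0.94.

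Of 16 adipocyte markers, Plin1, Cebpa and Pnpla2 were listed as lower in AKO males, at a summed level of 64038 to 82506 in WT and 46942 to 57028 in AKO, and 6 were lower in perigonadal fat, such as Cidea (log2 fold -1.60), Pnpla2 (-0.68), Cidec (-0.55) and Lipe (-0.37) in the authors' deposited table. Of those listed in males Pnpla2 fell by 0.60 by edgeR. In females Adipoq rose 1.40-fold, and Car3 (1.18-fold, adjusted p = 0.112) and Adrb3 (log2 fold -0.50, adjusted p = 0.115) did not pass. Of 16 epithelial markers, 5 were listed in females, all lower, with a summed level of 15907 to 20282 in WT and 7247 to 11282 in AKO. Krt8, Krt7 and Csn3 fell by 1.19, 1.21 and 0.66, and Cldn7 had a log2 fold of -0.76 (adjusted p = 0.0747). Krt7 (-1.09) and Krt14 (-1.23) were listed in perigonadal fat in the authors' deposited table. Of 13 muscle markers Acta1 was listed, and fell by 1.22 in males, and of 14 lymphoid markers Ptprc was listed in perigonadal fat (log2 fold 0.40) in the authors' deposited table. None of the listed markers was at 0 in any inguinal library. The part of these cell types in the values of the 7 genes was not tested.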

How the data were processed

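Poly(A) RNA was prepared with a stranded mRNA kit, per the labels' protocols, and STAR, DESeq2 and mm10 appear without versions in the submitters' processing notes. Counter and strand setting: not given in the sources used here. Thus reads of genes that overlap on opposite strands (Ogn with Cenpp, Svep1 with Gm26889, Tnc with 8030451A03Rik) may be shared. The authors deposited whole-number read counts per gene, not normalized, for listed genes only. Their comparison tables hold a mean signal of normalized counts, a log2 fold and its error, and p-values before and after adjustment, per the file headers. Every listed adjusted p was under 0.05. For perigonadal fat the sign of the deposited log2 fold is taken as AKO over WT, as it was for all 1074 male and 789 matched female inguinal genes.

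The authors' size factors were recovered from the counts and the deposited means by a least-squares fit (largest misfit 4.79e-08%) and served as offsets. How many genes the authors tested followed from the ratio of adjusted to raw p. Counts were fitted with edgeR 4.0.16 (glmQLFit in legacy mode, glmQLFTest) in R 4.3.3, checked on simulated data, with Benjamini-Hochberg adjustment. For every member the authors' deposited log2 fold was smaller than the edgeR one. The inguinal edgeR folds and the deposited perigonadal folds are thus not on one scale. Group means are given with the SD over 4 mice, each of its own animal number, and the number of counts limits their precision for counting error only. The members and the 14 gene lists were chosen with earlier results of these data known. The text names every member, Bcl6 and Adipoq where listed, the 2 genes most like each member (mean of at least 50), and, for each list and table, up to 4 genes with the lowest adjusted p, plus genes that complete a small count. One gene that this rule names is not reported here. Exon lengths and positions are from GENCODE M21 (GRCm38). Alternatives were TMM or total-count scaling, DESeq2 1.42.0, a minimum mean of 10, a replicate block and leaving out each library.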

Additional observations from a re-analysis of the deposited data

How the results depend on the processing

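Of 165 recomputed values of the 11 member folds, none changed sign, and 163 moved by less than the replicate SD. The exceptions were Smoc1 in females, at a log2 fold of 0.94 with TMM and 0.81 with the table's total as library size. These scalings moved the median log2 fold of all listed female genes by -0.09 and -0.21. The members were picked among strong rises in these same data, so a kept sign was close to given and is no check. The minimum mean count gave the same member folds as the main fit, so its values among the 165 test nothing. Leaving out each library gave ranges of 2.37 to 2.56 (Spon1), 1.35 to 1.44 (Svep1), 1.49 to 1.62 (Sulf1), 0.63 to 0.84 (Ogn), 1.12 to 1.32 (Smoc1), 0.82 to 1.11 (Thbs2) and 0.47 to 0.71 (Tnc) in males, and 1.52 to 1.72, 1.09 to 1.34, 0.97 to 1.27 and 1.00 to 1.06 for Svep1, Sulf1, Ogn and Smoc1 in females. The sex difference of the 4 shared genes passed under none of 21 alternatives (adjusted p from 0.229 to 0.825).

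Calls among the listed genes, adjusted for the number of genes the authors tested, were 651 in males and 326 in females. Adjusted over the listed genes alone they were 1072 and 790, and with DESeq2 995 and 739. Leaving out a library gave 350 to 560 male and 156 to 421 female calls. With TMM and total scaling the female calls were 36.2% and 21.99% higher in AKO, against 64.7%, and the male calls 47.8% with TMM against 56.2%. Both scalings rest on the listed genes alone, which all differ between genotypes by the authors' test, so they cannot settle these shares. The 5 sex differences became 3 with TMM, 9 with total scaling, 9 with DESeq2 and 2 to 7 without one library. Perigonadal fat had 1488 listed genes of 13361 tested, of which 902 passed 0.01, with all 6 members. The members were picked among strong rises, so nothing is read from their passing.

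No label pairs a WT with an AKO mouse. Deviations of same-numbered WT and AKO samples correlated at 0.07 to 0.26 in males and -0.30 to 0.18 in females. Not every sample correlated best with its own number. The highest r in males was 0.26, for the WT and AKO samples numbered 1. Whether same-numbered samples share a batch is not known. With the replicate block the calls were 772 in males, 130 in females and 7 for sex.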
